A study of Cyanidioschyzon merolae with 8 samples.

Results

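The nuclear genes of the red alga Cyanidioschyzon merolae were followed as dark-kept cells received blue light. Every nuclear gene that the authors tested in that comparison was taken, provided that its level was above 0 both under blue light and in its dark control. This gave 4435 genes of the 5092 gene IDs in the table. A further 348 nuclear IDs were not tested, and 10 were tested but listed at 0 in one of the conditions, so that they have no ratio. C. merolae is a single-celled alga of hot acid springs with a small genome, 1 plastid per cell and a very simple cell structure. Light gives such a cell both its energy and a signal. Pigments that absorb blue light act in photosynthesis and also in receptors such as cryptochromes, through which light reaches the transcription of nuclear genes.

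Blue light was given for 30 min at 15 µmol m-2 s-1 to wild-type cells of strain 10D that had been in the dark for 36 h. Their dark control was kept dark without that exposure. In a separate experiment dark-kept wild-type cells of the same strain received red light for 30 min, with a dark control of their own. The labels leave out the red intensity and do not state the hours of darkness for that experiment. The meter was read at 365 nm for blue and at 630 nm for red light. Before the dark period the flasks were kept at 42 °C and pH 2.3 in constant light at 100 µmol m-2 s-1. Each of the 4 groups has 2 biological replicates, which the authors combined into 1 value of FPKM, a read level per length of transcript and size of library. No SD can therefore be given, the depth of the libraries is unknown, and every test is the one in the authors' deposited table. A gene is said to rise or fall where its q-value there, a p-value adjusted for many tests, was under 0.05. No function stands beside any ID in the data table, and the reference table gives the 4420 genes that it matched no name other than the locus tag, so genes are given by ID. Positions are those of the deposited table, counted from 1, and their genome build is not known from the sources used here.

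Blue light raised and lowered many nuclear genes within 30 min. By the q-values of the authors' deposited table, 985 of the 4435 genes rose and 824 fell, 22.2% and 18.6% of them and 40.8% together. Among all 4517 IDs tested, organelle IDs included, 22.2% rose and 18.4% fell, 40.6% together. Before adjustment 2186 of the nuclear genes had a p-value under 0.05 in that table. The genes that rose changed by a median of 2.96-fold and those that fell by a median of 2.25-fold. The smallest change that passed was 1.63-fold.

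Steep changes were more often rises. At least 4-fold, 333 genes rose and 127 fell. At least 16-fold, 64 rose and 31 fell, and at least 64-fold the counts were 6 and 7. Genes that rose had a median of 164 FPKM under blue light and 50.3 FPKM in the dark control. Genes that fell had a median of 78.3 FPKM under blue light and 203 FPKM in the dark control. Those dark levels are part of the ratio that made the calls. In the red experiment's dark control, which is not, genes that rose had a median of 57.1 FPKM and genes that fell 239 FPKM.

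**Figure D1:**
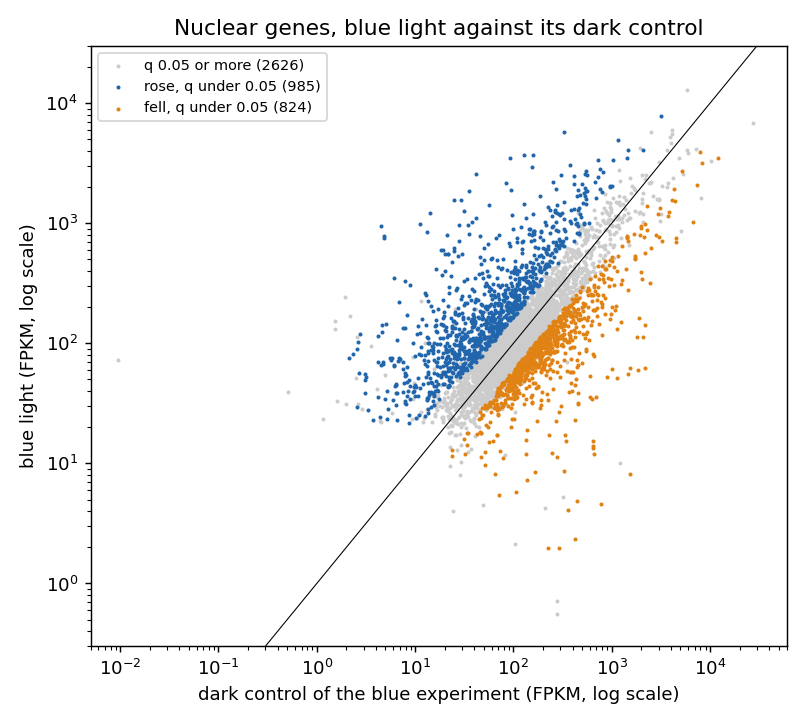
Each point is 1 of the 4435 nuclear genes, with its FPKM under blue light on the vertical log axis and its FPKM in the dark control on the horizontal log axis; the line marks equal levels. The 985 genes that rose lie above the line and the 824 that fell below it, with few genes under 20 FPKM in blue light and more of them in the dark control.

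The red experiment's dark control offered a further dark level that the blue comparison did not use. Of the 985 genes that rose, 924 also stood above it under blue light, which is 93.8%, against 45.7% of all 4435 genes. Of the 824 that fell, 774 stood below it, which is 93.9%, against 54.3% of all. These shares use the same blue light values as the calls. The sources used here do not say if both experiments were scaled alike.

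The calls divided the summed nuclear FPKM unevenly, which follows in part from how they were made, since they rest on the same levels. Genes that rose held 35.2% of the summed nuclear FPKM under blue light and 9.57% in the dark control. Genes that fell held 11.5% under blue light and 33.1% in the dark control. The 2626 genes that passed in neither direction held 53.2% under blue light and 57.3% in the dark control. The red experiment was not used for the calls. There, genes that rose under blue light held 22.8% under red light and 9.43% in its dark control. Genes that fell under blue light held 22.6% under red light and 35.5% in its dark control. FPKM is a share of each library scaled by gene length, so these values carry no information on the amount of RNA per cell.

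Fewer genes had low levels under blue light. Only 69 genes lay under 20 FPKM under blue light, against 252 in the dark control. The red experiment had 172 such genes under red light and 259 in its dark control. The median was 106 FPKM under blue light and 107 FPKM in the dark control, while the SD of log2 FPKM across genes was 1.48 under blue light and 1.67 in the dark control. The 100 most abundant genes took 26.7% of the summed FPKM under blue light and 31.9% in the dark control. Yet more genes reached 1000 FPKM under blue light, 190 against 154 in the dark control. Whether a gene was tested can depend on its level under blue light, and the part of this in the low counts was not tested.

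How a gene responded went with its level in the dark. To keep the response apart from the level it was sorted by, genes were ordered by their FPKM in the red experiment's dark control and divided into 10 classes of 443. In the lowest class, up to 31.5 FPKM there, the authors' deposited table called 60.9% risen and 2.93% fallen under blue light, with a median log2 ratio of 1.54. In the 5th class, from 97.5 to 122 FPKM, 19.4% rose and 11.5% fell. In the highest class, from 381 FPKM, 3.61% rose and 49.4% fell, with a median log2 ratio of -0.94. The share that rose declined from class to class except between the 8th and 9th classes, at 7.00% and 7.45%, and the share that fell grew at every step.

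Whether a gene was tested can depend on its level under blue light, which bears on the low end of that order. With the 180 untested nuclear IDs that have a ratio added and counted as not passing, 43.9% of the lowest class rose and 1.74% fell, with a median log2 ratio of 1.26. In that version the next class had the highest share, 45.4%, so the order of rises did not hold at the low end. With dark levels of at least 30 FPKM required in both experiments, 35.8% of the lowest class rose. The highest class, where 49.1% and 51.1% fell in these versions, was little touched by them. Both versions were chosen after the values had been seen. Across 4430 genes Spearman's rho between the blue log2 ratio and the level in the other dark control was -0.53, a description over genes, which are not independent replicates.

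Red light was handled the same way, with genes ordered by the blue experiment's dark control. In its lowest class 33.9% of genes rose and 15.7% fell, and in its highest class 22.6% rose and 18.9% fell. The rho over 4385 genes was -0.10, against -0.53 for blue light. Against its own dark control, which is also the denominator of the ratio, the rho was -0.49 for blue light and -0.41 for red light, so that the lights differed little under that order. Of all nuclear genes tested under red light 14.5% rose and 27.4% fell. The difference between the lights was not tested.

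**Figure D2:**
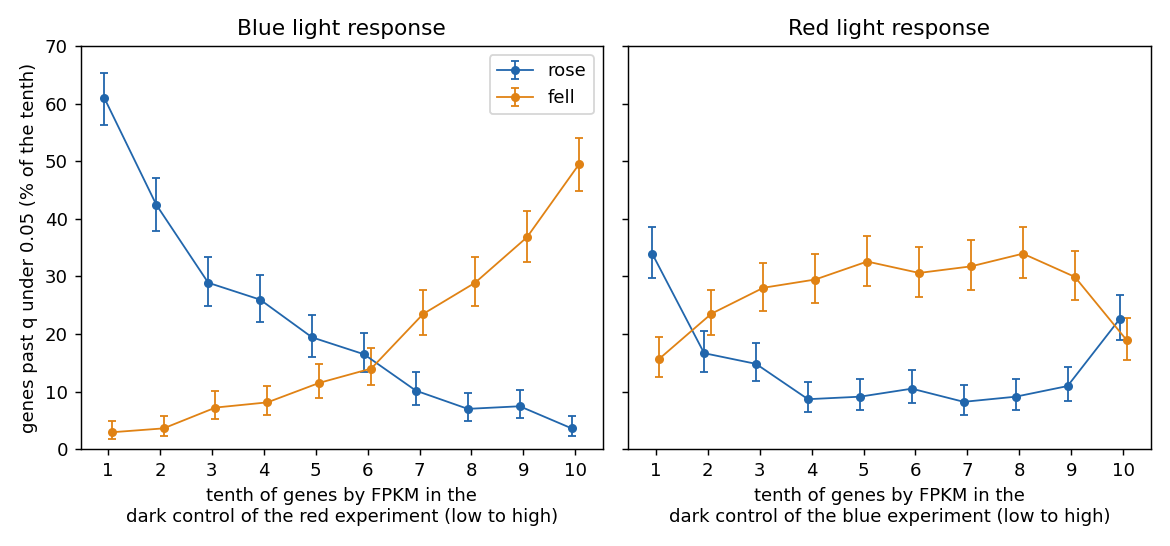
Share of genes past q under 0.05 in each of 10 equal classes of genes ordered by FPKM in the dark control of the other experiment, for blue light (left) and red light (right), with 95% Wilson intervals that cover counting over genes only. Under blue light the share that rose is 60.9% in the lowest class and 3.61% in the highest, and the share that fell is 2.93% and 49.4%; under red light 33.9% rose in the lowest class and 22.6% in the highest.

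The largest rises were in genes low in their own dark control, a level that is part of the ratio they were chosen by. Among genes that rose, were alone in their locus and reached 20 FPKM in a condition, the 15 with the largest log2 ratio stood at 103 to 2591 FPKM under blue light and at 2.63 to 41.9 FPKM in the dark control. They lie on 11 chromosomes. CMO306C, on chromosome 15 at 763738 to 764899, had 953 FPKM under blue light and 4.55 FPKM in the dark control. Its log2 ratio was 7.71, and the authors' deposited table gives it q = 0.00636. The next, CMT305C, at 772120 to 773418 of chromosome 20, had 776 FPKM under blue light and 4.82 FPKM in the dark control, with q = 0.00175 in the same table and a log2 ratio of 7.33. Both were low in the other dark control as well, at 4.19 and 6.13 FPKM. The 15 ran from 3.12 to 80.1 FPKM there, against a median of 122 FPKM over the 4435 genes.

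CMS308C was the most abundant of the 15 under blue light. It lies on chromosome 19 at 797694 to 798789 and had 2591 FPKM under blue light and 41.9 FPKM in the dark control, with q = 0.00045 in the authors' deposited table and a log2 ratio of 5.95. CMD051C, on chromosome 4 at 137944 to 139305, had 1862 FPKM under blue light and 35.5 FPKM in the dark control, a log2 ratio of 5.71 with the same q. CMF098C, on chromosome 6 at 268580 to 269131, had 1551 FPKM under blue light and 25.0 FPKM in the dark control, a log2 ratio of 5.96 with the same q. These genes entered the ranks of the most abundant transcripts from the lower part of the list.

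The other rises in this set, from the largest log2 ratio to the smallest, were those of CMP252C, CMK188C, CMN328C, CME023C, CMS455C, CME120C, CMT538C, CMQ436C, CMO111C and CMJ134C. Their log2 ratios ran from 7.30 for CMP252C down to 5.28 for CMJ134C, which had 103 FPKM under blue light and 2.63 FPKM in the dark control and passed narrowly, with q = 0.0477 in the authors' deposited table. All 15 stood above both dark controls under blue light. In 9 of them the red experiment's dark control was the higher of the pair, and against it the blue log2 ratio ran from 2.34 for CMS455C to 8.62 for CMN328C.

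All 15 of these genes also rose under red light in the authors' deposited table, against 14.5% of all nuclear genes tested. The red log2 ratios of the 15 ran from 1.02 to 6.74, with a median of 3.48. The blue log2 ratio was the larger for 13 of them. CMN328C had 6.43 under blue light and 6.74 under red light, and CMO111C had 5.31 under blue light and 5.62 under red light. CMQ436C was the only one of the 15 with a lower level under blue than under red light, at 328 FPKM under blue and 356 FPKM under red light. The genes were chosen for their response to blue light, which by itself favours the larger ratio there, and the difference between the lights was not tested.

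The largest falls were in genes abundant in their own dark control, which again is part of the ratio they were chosen by. Among genes that fell, were alone in their locus and reached 20 FPKM in a condition, the 15 with the lowest log2 ratio stood at 1.97 to 62.2 FPKM under blue light and at 225 to 2183 FPKM in the dark control, on 10 chromosomes. CMK010C, on chromosome 11 at 24881 to 26285, had 8.21 FPKM under blue light and 1529 FPKM in the dark control. Its log2 ratio was -7.54, with q = 0.00045 in the authors' deposited table. CMK115C, on chromosome 11 at 320823 to 323145, had 4.63 FPKM under blue light and 784 FPKM in the dark control, a log2 ratio of -7.40 with the same q. In the dark control these genes held rank 92 and rank 220 of 4435 by abundance. In the red experiment's dark control, which the choice did not use, the 15 ran from 67.2 to 2509 FPKM. The median of the 4435 genes there was 122 FPKM.

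CMG099C, on chromosome 7 at 254111 to 255554, had 2.35 FPKM under blue light and 420 FPKM in the dark control, with q = 0.0337 in the authors' deposited table and a log2 ratio of -7.48. CMB093C, on chromosome 2 at 264337 to 268561, had 1.97 FPKM under blue light and 290 FPKM in the dark control, a log2 ratio of -7.20 with q = 0.00045. CMS301C, on chromosome 19 at 775168 to 776485, had 62.2 FPKM under blue light and 2183 FPKM in the dark control, a log2 ratio of -5.13 with q = 0.00045. It was the most abundant of the 15 both in the dark control and under blue light. The further falls in this set were those of CMM108C, CMC074C, CMS128C, CML261C, CMF101C, CMI242C, CMF092C, CMN082C, CMS487C and CMI244C, with log2 ratios from -6.82 to -4.73. CMM108C and CMC074C belong to the genes of 1887 bp coding length described below, whose individual values are uncertain.

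Under red light 14 of these 15 genes also fell in the authors' deposited table, against 27.4% of all nuclear genes tested. CMI242C had 457 FPKM under red light and 740 FPKM in its dark control, with q = 0.0673. The red log2 ratios of the 15 ran from -3.31 for CMK010C to -0.70 for CMI242C, with a median of -1.50, against a median of -5.79 under blue light. All 15 stood lower under blue light than under red light and lower than in either dark control. CMK010C, for example, had 8.21 FPKM under blue light and 246 FPKM under red light. Choosing genes by their fall under blue light by itself favours low blue light values. The difference between the lights was not tested.

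**Figure D3:**
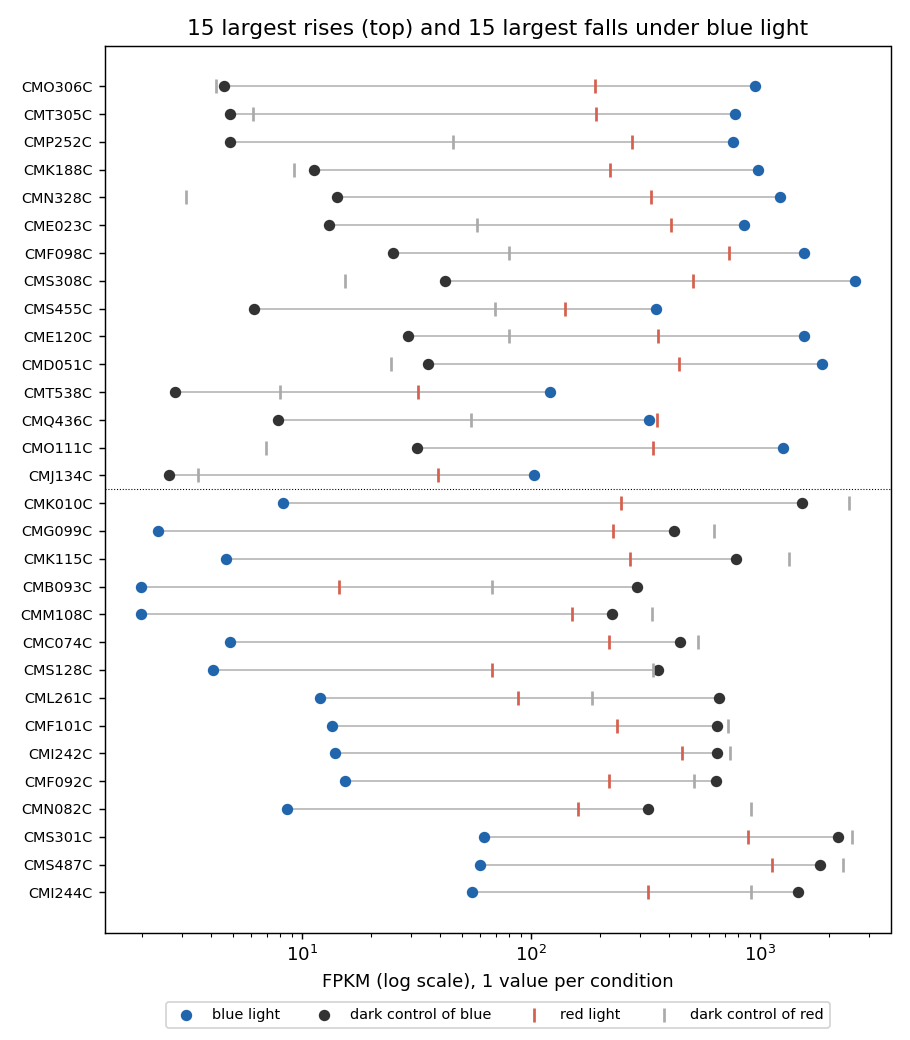
FPKM on a log axis, 1 value per condition, of the 15 largest rises (top) and the 15 largest falls (bottom) under blue light; circles are blue light and its dark control, ticks red light and its dark control. Blue light lies above both dark controls in all 15 rises and below both in all 15 falls, with red light on the same side of its own dark control in every gene.

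Larger classes were set beside red light in the same way, where 14.5% of all nuclear genes rose and 27.4% fell. Of the 130 genes that rose at least 8-fold under blue light, 95 rose and 0 fell under red light in the authors' deposited table, with a median log2 ratio of 3.99 under blue light and 2.33 under red light. Of the 54 genes that fell at least 8-fold, 48 fell and 0 rose under red light, with a median of -4.18 under blue light and -1.48 under red light. Among the 499 genes that rose 2- to 4-fold under blue light, 200 rose and 12 fell under red light. Among the 420 that fell 2- to 4-fold, 11 rose and 271 fell under red light. In between, of the 203 genes that rose 4- to 8-fold, 130 rose and 1 fell under red light. Of the 73 that fell 4- to 8-fold, 5 rose and 39 fell, a smaller share of falls than in the 2- to 4-fold class. Each light has its own dark control, so these responses share no libraries, but choosing genes by the blue ratio favours a larger median there.

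CMJ101C went the other way under red light. The series' records name it and CMJ100C as small heat shock protein genes, a family of chaperones that hold unfolding proteins. It had 54.2 FPKM under blue light and 216 FPKM in the dark control, a fall by the authors' deposited table (q = 0.00045, log2 ratio -2.00). It had 4784 FPKM under red light and 256 FPKM in its dark control, a rise by the same table (q = 0.0077, log2 ratio 4.22). CMJ100C was not tested under either light.

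Blue light and the dark control shared 1 of their 10 most abundant nuclear genes, 22 of their 50 and 48 of their 100. The dark controls of the experiments shared 4, 23 and 53 with each other. In the top 50 and top 100, which include the top 10, these counts were close to those for blue light and its dark control. Among the 100 most abundant genes under blue light, 48 rose, 7 fell and 45 did not pass, in the authors' deposited table. Among the 100 most abundant in the dark control, 3 rose, 45 fell and 52 did not pass. Of all 4435 genes, 22.2% rose and 18.6% fell. A gene at the top of a condition is more often higher there by that choice alone.

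CMI233C was the most abundant gene under blue light to have risen more than 16-fold. It lies on chromosome 9 at 630482 to 631579 and had 5809 FPKM under blue light and 324 FPKM in the dark control, with q = 0.00045 in the authors' deposited table and a log2 ratio of 4.16. Another 11 genes stood among the 100 most abundant under blue light but beyond rank 1000 in the dark control. CMQ113C, CMJ042C and CMM134C led them, with 3721, 3708 and 3506 FPKM under blue light and 160, 129 and 93.1 FPKM in the dark control. Of these 11 genes 8 also rose under red light, against 14.5% of all nuclear genes tested. CML205C, at 580 FPKM under red light and 307 FPKM in its dark control, did not pass there (q = 0.226 in the authors' deposited table).

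In the other direction, 9 genes among the 100 most abundant of the dark control fell beyond rank 1000 under blue light. CMT056C, on chromosome 20 at 146499 to 148322, had 141 FPKM under blue light and 2205 FPKM in the dark control, a log2 ratio of -3.96. CMM224C, on chromosome 13 at 554665 to 557092, had 113 FPKM under blue light and 2060 FPKM in the dark control, a log2 ratio of -4.19. CMI050C, on chromosome 9 at 147075 to 148565, had 164 FPKM under blue light and 1890 FPKM in the dark control, a log2 ratio of -3.53. Each of these had q = 0.00045 in the authors' deposited table. Under red light 8 of the 9 fell, against 27.4% of all nuclear genes tested. CMI050C, at 1359 FPKM under red light and 2192 FPKM in its dark control, did not pass there (q = 0.378 in the authors' deposited table).

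Some large differences in the most abundant genes did not pass. CMK024C, first in the dark control, had 6796 FPKM under blue light and 27373 FPKM in the dark control, and did not pass (q = 0.286 in the authors' deposited table). CMI049C, first under blue light, had 12937 FPKM under blue light and 5784 FPKM in the dark control, and did not pass either (q = 0.54). By contrast CMJ148C, second under blue light, rose, with 7834 FPKM under blue light and 3177 FPKM in the dark control (q = 0.0199). Among genes that differed at least 2-fold, 84.9% of those with a mean over 1000 FPKM passed, against 97.1% between 300 and 1000 FPKM and 65.3% under 30 FPKM.

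Some abundant genes were close to level. The 5 of highest mean FPKM with an absolute log2 ratio under 0.25 were CML063C, CMK296C, CMG162C, CMQ292C and CMJ170C. CML063C had 4625 FPKM under blue light and 3992 FPKM in the dark control, with q = 0.811 in the authors' deposited table. CMK296C had 4063 FPKM under blue light and 3656 FPKM in the dark control, with q = 0.819. A q-value that misses the threshold does not show that a level stayed the same. Under red light CML063C, CMG162C and CMJ170C rose, CMJ170C with 846 FPKM under red light and 135 FPKM in its dark control (q = 0.00555). Their levels in the dark controls were far apart. CMJ170C had 2495 FPKM, CMG162C 3028 FPKM and CML063C 3992 FPKM in the blue experiment's dark control. In that of the red experiment CMG162C had 400 FPKM and CML063C 811 FPKM. Each of these genes stood lower under red light than in the blue experiment's dark control.

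The 2 lowest log2 ratios of all under blue light did not pass the test, and both belonged to genes of 1 coding length. CMH216C, on chromosome 8 at 556712 to 558599, had 0.558 FPKM under blue light and 281 FPKM in the dark control, with q = 0.31 in the authors' deposited table and a log2 ratio of -8.97. CMQ418C, on chromosome 17 at 1082338 to 1084225, had 0.711 FPKM under blue light and 279 FPKM in the dark control, a log2 ratio of -8.62 with q = 0.255. The reference table gives both a coding length of 1887 bp. It holds 8 nuclear genes of that length, of which 7 were tested, on 6 chromosomes. They were singled out after their values had been seen.

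Under blue light the 7 genes ran from 0.558 to 679 FPKM, whereas in the dark control they lay closer together, from 225 to 446 FPKM. CMM108C had 1.99 FPKM under blue light and 225 FPKM in the dark control, and CMC074C had 4.85 FPKM under blue light and 446 FPKM in the dark control. Both fell, with q = 0.0229 and 0.00045 in the authors' deposited table. CML157C fell less, with 112 FPKM under blue light and 292 FPKM in the dark control. CML324C had 191 FPKM under blue light and 332 FPKM in the dark control (q = 0.0663). CMF056C alone was higher under blue light, at 679 FPKM against 437 FPKM in the dark control, and did not pass (q = 0.267).

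Summed over the 7 genes, the level was 990 FPKM under blue light and 2291 FPKM in the dark control, 2.31-fold lower under blue light. CMF056C held 68.6% of the sum under blue light and 19.1% in the dark control. Under red light the sum was 1440 FPKM, against 2974 FPKM in its dark control, and there the 6 genes other than CMF056C all fell by similar amounts, with log2 ratios from -1.33 to -1.05. The summed level thus differed by a similar factor under both lights, while the ratios of single genes were widely apart under blue light alone. The table does not tell whether these genes are near-identical copies among which reads could be assigned unevenly, so their individual values are uncertain, and this was not tested.

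**Figure D4:**
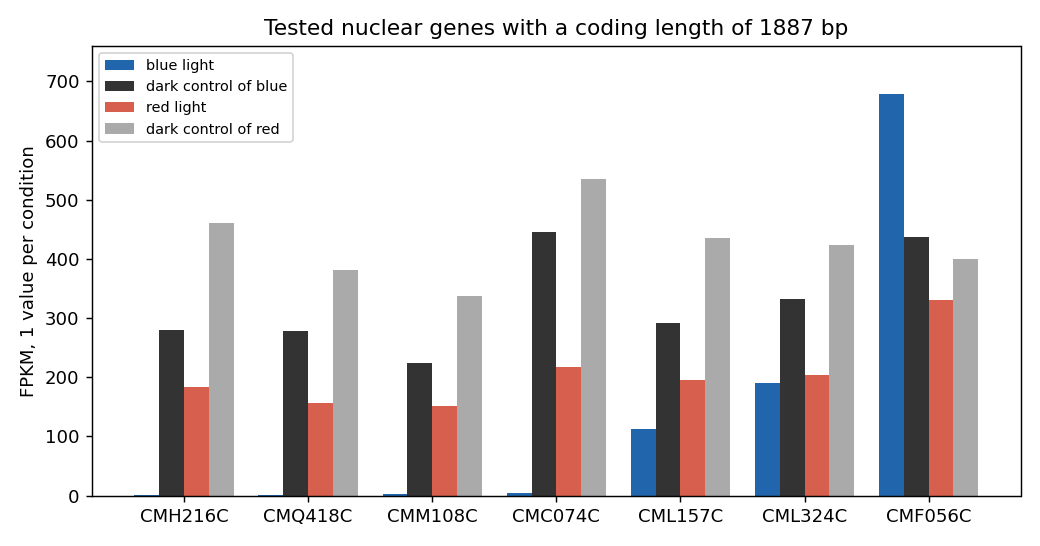
FPKM, 1 value per condition, of the 7 tested nuclear genes with a coding length of 1887 bp under blue light, in its dark control, under red light and in its dark control. The 3 conditions other than blue light give all 7 genes between 151 and 536 FPKM, whereas under blue light 4 genes lie below 5 FPKM and CMF056C reaches 679 FPKM.

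Under blue light neighbouring genes shared their direction of change more often the closer they lay. Of 229 pairs of neighbours with 1 to 200 bp between their loci, 62.9% had blue log2 ratios of the same sign. The share was 59.4% of 493 pairs at over 200 and up to 500 bp, 56.1% of 720 pairs at over 500 and up to 1000 bp and 52.6% of 1061 pairs at over 1000 and up to 2000 bp. At more than 2000 bp it was 50.2% of 1832 pairs, and for genes 10 places apart 49.1% of 4235 pairs. Under red light the share was 59.2% at the closest gaps, 60.2% at over 500 and up to 1000 bp and 53.7% beyond 2000 bp. The closest pairs did not have the highest share there, but their Wilson interval, 52.7% to 65.4%, held the 60.2%. The rho between the red log2 ratios of neighbours was 0.30 at the closest gaps and 0.07 beyond 2000 bp. Of red pairs with both genes past the threshold, 80% of 40 shared a direction at the closest gaps. Beyond 2000 bp 60.4% of 338 such pairs did.

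Of the 722 blue pairs at 1 to 500 bp, 133 had both genes past the threshold. In 58 of them both rose, in 46 both fell, and in 29 they changed in opposite directions, so that 78.2% shared a direction. Among all 788 pairs of next genes that both passed, 60.9% did, and among such pairs 10 places apart 49.3%. CMT072C and CMT073C, 407 bp apart on chromosome 20, had 22.6 and 5.83 FPKM under blue light and 273 and 105 FPKM in the dark control. CMM165C and CMM166C, 106 bp apart on chromosome 13, had 61.2 and 161 FPKM under blue light and 7.57 and 19.1 FPKM in the dark control. Dark levels of neighbours also went together, with a rho of 0.34 at 1 to 200 bp and 0.02 beyond 2000 bp. The labels name no step that marks strand, so that reads of close genes may not be told apart, and its part in these shares was not tested.

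**Figure D5:**
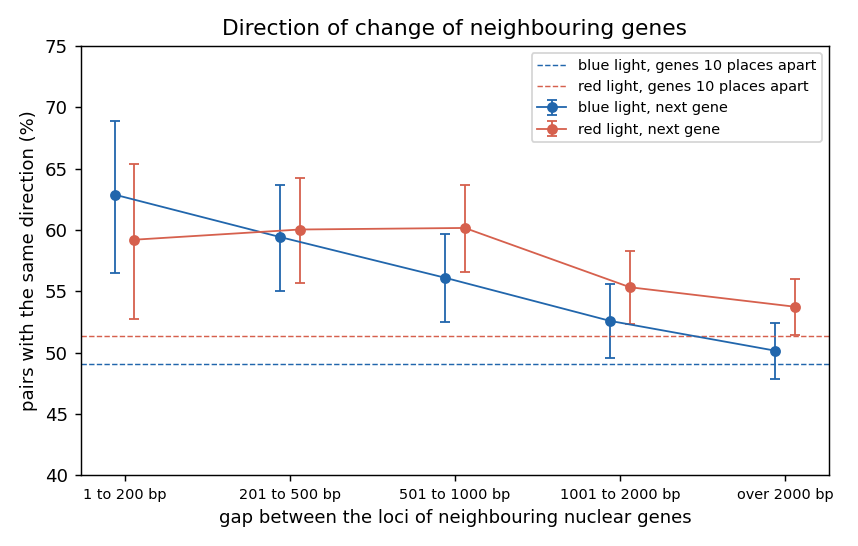
Share of neighbouring nuclear gene pairs whose log2 ratios have the same sign, by the gap between their loci, under blue and red light, with 95% Wilson intervals that cover counting over pairs only; dashed lines give genes 10 places apart. Under blue light the share is 62.9% at the closest gaps and 50.2% beyond 2000 bp.

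Longer runs of genes with the same call were few. In 6 places at least 5 genes in a row, among those tested, passed in the same direction, and these were found by searching the values. A run of 6 rises lay on chromosome 13 from CMM072C to CMM081C, at 162910 to 183634, where CMM081C had 134 FPKM under blue light and 7.88 FPKM in the dark control. A run of 5 rises lay on chromosome 12 from CML202C to CML210C, at 509989 to 531413, and held CML205C, with 2156 FPKM under blue light and 83.8 FPKM in the dark control. The other 4 runs were falls, on chromosomes 7, 10, 16 and 20. That on chromosome 20 ran from CMT069C to CMT074C, at 178456 to 191529, and included CMT072C and CMT073C.

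Changed genes were spread over all 20 chromosomes. The share that rose lay between 13.3% of 128 genes on chromosome 4 and 27.8% of 241 genes on chromosome 13. The share that fell lay between 13.2% of 227 genes on chromosome 10 and 24.6% of 126 genes on chromosome 6. Within 20 kb of the listed ends of the chromosomes 17.5% of 166 genes rose and 18.1% fell, and elsewhere 22.4% rose and 18.6% fell. In 5 classes of 887 genes by locus length, 17.2% rose in the shortest, 26.9% in the middle one and 19.4% in the longest, and between 17.6% and 19.4% fell in each. The rho between locus length and the blue log2 ratio was 0.0083 over 4435 genes.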

How the data were processed

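Poly(A)-selected RNA was sequenced as paired reads of 75 bp on a MiSeq, per the labels' protocols. TopHat, TopHat2 2.0.5, Cuffdiff, Trimmomatic 0.32 and FastQC 0.11.5 appear in the submitters' processing notes, without their roles. The authors deposited FPKM as 1 value per condition with the replicates combined, and a p-value and q-value per gene and comparison. Without values per library the authors' deposited q-value at 0.05 stands in for the test that counts would have had. How that test used the replicates is not stated in the sources used here. Log2 ratios were computed here from the FPKM with no pseudocount.

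The genes and lists were chosen with earlier results of these data known. The named genes are the 15 largest rises and falls among genes past the threshold, alone in their locus and with at least 20 FPKM in the higher condition, and the 5 most abundant genes with an absolute log2 ratio under 0.25. Genes named for rank, neighbours, runs or length were chosen after their values were seen. The planned lists of gene functions, promoter motifs and protein features need annotation or sequence that was not used here. Alternatives changed the threshold, the adjustment, the filters, the centring and the pseudocount. Calculations used Python 3.11.15, numpy 2.4.6, pandas 2.3.3 and scipy 1.17.1, plots matplotlib 3.10.9, and the code was checked on simulated data.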

Additional observations from a re-analysis of the deposited data

Results flagged for a closer look

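Among the nuclear genes with no ratio, 4 passed the threshold in the authors' deposited table while listed at 0 in the dark control. CMJ308C, on chromosome 10 at 808918 to 809965, had 181 FPKM under blue light, with q = 0.00045 in that table, and 36.3 FPKM under red light against a listed 0 in its dark control. Its neighbour CMJ309C had 243 FPKM under blue light and 1.94 FPKM in the dark control and did not pass (q = 0.199). CMN009C had 54.2 FPKM and CMF187C 25.1 FPKM under blue light, each with q = 0.00045, and CMT245C had 36.4 FPKM with q = 0.02. A further 3 passed while listed at 0 under blue light, each with q = 0.00045 in that table. CMN051C had 324 FPKM, CMB089C 233 FPKM and CMR408C 51.0 FPKM in the dark control. Whether a listed 0 is a true absence or a failed estimate was not tested.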

How the results depend on the processing

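The authors deposited 1 value per condition, so no library could be left out. No paired analysis was possible because the replicates were combined before deposit. Depth is unknown. At the authors' own mark, q under 0.01, 735 genes rose and 507 fell, against 985 and 824 at q under 0.05. At that mark 48.5% of the lowest class by the other dark control rose and 38.4% of the highest class fell. With at least a 2-fold change required, 832 genes rose, 547 fell and 43.6% of the highest class fell. With both dark levels at 30 FPKM or more, 590 genes rose and 35.8% of the lowest class rose. With untested IDs added, 43.9% of the lowest class rose. Of 50 alternative values for the counts, the class shares and the close neighbours, 19 were identical to the reported ones, most of them because the change could not touch them, and 23 more stayed within their error or within 1.5 times. With Benjamini-Hochberg adjustment within the blue comparison, 1007 genes rose and 860 fell. A pseudocount of 1 FPKM moved the ratios of the named genes by at most 0.59 on the log2 scale and cannot turn their direction.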

Other observations

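CMN168C and CMG001C lie on chromosomes 5 and 15 of the deposited table, although each carries the third letter of the IDs of another chromosome. CMG001C had the widest ratio of all the genes, 72.4 FPKM under blue light and 0.0096 FPKM in the dark control, and did not pass (q = 0.484 in the authors' deposited table). In all, 18 genes differed at least 16-fold without passing, 12 higher and 6 lower under blue light.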
